A study of Caenorhabditis elegans with 39 samples.

Results

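Cuticle collagens are the proteins from which nematodes build their exoskeleton. Epidermal cells secrete them before hatching and again before each moult, and at every moult their genes are transcribed in successive waves, the collagens of the circumferential furrows in an early wave and others, among them dpy-5 and dpy-13, in a later one. Each chain is trimmed by proteases, has its prolines hydroxylated, folds as a trimer and is cross-linked in the cuticle. Mutations in many of these genes change body shape, and the genes are named for it: dumpy (dpy) animals are short and fat, rollers (rol) are twisted along their axis, and squat (sqt) animals can be either. The 10 genes described here are sqt-3 (sequence name F23H12.4), dpy-17 (F54D8.1), sqt-1 (B0491.2), rol-6 (T01B7.7), dpy-5 (F27C1.8), dpy-13 (F30B5.1), dpy-4 (Y41E3.2), sqt-2 (C01B12.1), rol-8 (ZK1290.3) and col-17 (F11G11.10). They were chosen by sequence name out of 44968 counted features, as collagens of this kind that do not belong to the furrow group. The gene col-17 carries a number in place of a mutant name.

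Messenger RNA was measured in 39 libraries of Caenorhabditis elegans strain N2, the standard laboratory wild type. The founding generation had spent time as short-term dauers or as long-term dauers (an arrested, stress-resistant larval form), or had been kept under control conditions, and all lines were well fed afterwards. The F3 descendants were frozen as whole L1 larvae, the first larval stage, after 18 h of feeding or 24 h of starvation, a state in which newly hatched larvae arrest. There were 4 fed and 9 starved libraries of short-term dauer descendants, 3 fed and 7 starved libraries of long-term dauer descendants, and 4 fed and 12 starved libraries of control descendants. The 2 states also differed in hours of culture and in washing before freezing (more washes when fed), and these cannot be told apart from feeding. The series' design text calls the replicates biological; what the library names stand for (LC12, LC4_49d) is not stated in the labels.

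Libraries held 20950821 to 30313127 gene counts in batch 1 (24 libraries, among them every fed one) and 8836723 to 13740490 in batch 2 (15 starved libraries). Of the batch 1 libraries, those of long-term dauer descendants carry lane code 4, fed ones of short-term dauer descendants lane code 5, and fed ones of control descendants 2 of each. Markers of muscle, intestine and epidermis were present in every group, as whole larvae should have. Levels are given as CPM, read counts scaled to the same total of gene counts in each library, with TMM factors over the 39 libraries. A count of 0 allowed at most 0.0732 to 0.172 CPM in batch 1 and 0.2 to 0.318 CPM in batch 2, taking 3 counts as the limit, which covers counting error only.

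Of the 39 libraries, 4 stood apart once their values were seen, so they were not chosen in advance. The starved long-term dauer library LC4_49d held collagen levels like those of fed larvae. The fed and starved control libraries LC12 had the highest sums of 3 genes of late embryos (hch-1, sepa-1 and cut-3, a list made after the values were seen), 173 CPM in fed LC12 and 35.5 CPM in starved LC12, where the other fed control libraries held 3.25 to 13.4 CPM and the other starved control libraries of batch 1 held 1.16 to 11.8 CPM. The next highest sums were 30.6 CPM in fed short-term dauer LC14 and 22.2 CPM in fed long-term dauer LC4_49d. The starved short-term dauer library LC14 placed 12.6% of its reads outside genes and summed to 41.2 CPM over 11 adult markers (yolk, sperm and adult cuticle genes), against at most 7.33 CPM in any other library. A second embryo list, of 9 patterning genes, summed to 14.7 CPM in that same starved LC14 library, its highest sum. Fed control LC12 held 11.2 CPM of these and starved control LC12 6.65 CPM, so embryo messages were not particular to LC12. Most test results that rest on these 4 libraries are given with and without them. Correlations between genes and SDs of log2 ratios over fed libraries are given only with fed control LC12 included.

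**Figure D1:**
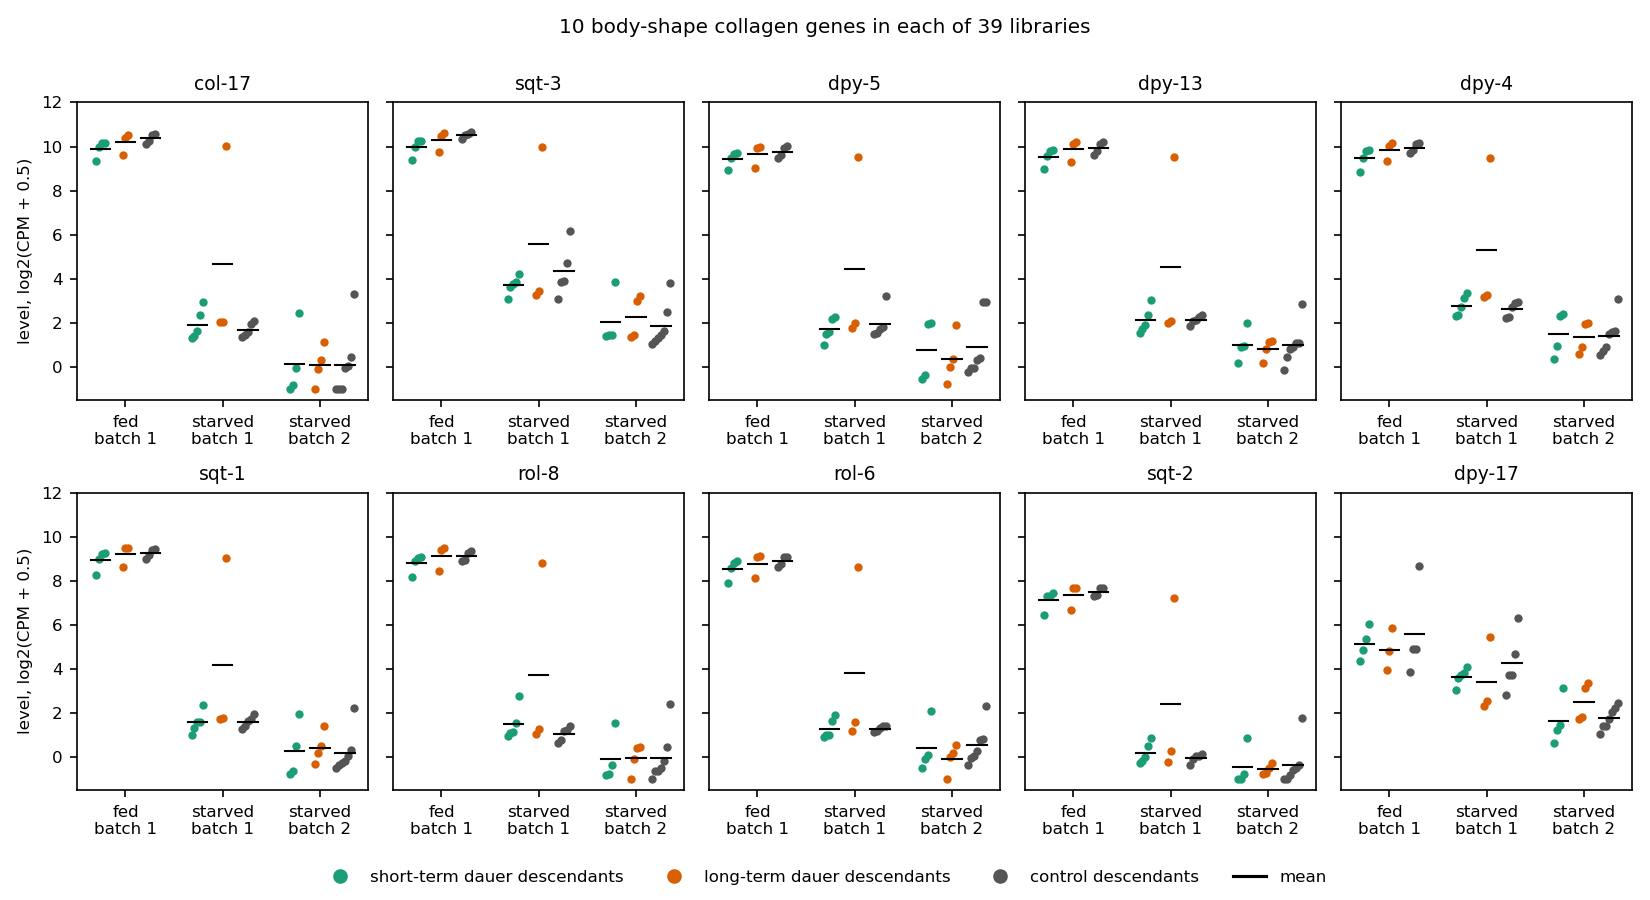
Level of each of the 10 genes in each of 39 libraries, as log2(CPM + 0.5), by feeding state and batch; a point is 1 library, colours mark ancestry and a bar is the mean of its group. The genes other than dpy-17 sit near the top in fed libraries and low in starved ones, apart from 1 starved long-term dauer library (LC4_49d), and dpy-17 shows a smaller shift and 1 high fed control library (LC12).

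Across the 11 fed libraries, 9 of the 10 genes were abundant messages, and across the starved ones they were close to absent. The gene sqt-3, whose product is trimmed by the protease DPY-31, had 669, 1291 and 1645 CPM (lowest, median and highest) in the 11 fed libraries, against 8.01, 13.4 and 70.5 CPM in the 12 starved batch 1 libraries other than LC4_49d and 1.54, 2.23 and 14 CPM in the 15 starved batch 2 libraries. The lowest fed library was thus far above the highest of these starved ones.

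The pair sqt-1 and rol-6 are collagens whose roller mutants interact genetically, and a dominant rol-6 allele is a common marker of transgenic worms. Fed larvae held 307, 593 and 726 CPM of sqt-1, against 1.51, 2.59 and 4.68 CPM in the same 12 starved libraries of batch 1. For rol-6 the values were 239, 443 and 547 CPM in fed larvae, against 1.36, 1.87 and 3.19 CPM in those starved libraries. These fed and starved libraries did not overlap for either gene. No share of all genes with separate ranges is given, so the lack of overlap is a description.

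Of the dumpy collagens, dpy-5 had 484, 806 and 1033 CPM in fed larvae, against 1.47, 2.87 and 8.95 CPM in the 12 starved batch 1 libraries other than LC4_49d. dpy-13 had 508, 889 and 1171 CPM in fed larvae, against 2.38, 3.75 and 7.83 CPM in those starved libraries. dpy-4 had 466, 922 and 1134 CPM in fed larvae, against 4.17, 6.54 and 9.83 CPM in those starved libraries. For all 3 genes these fed and starved libraries did not overlap, as for sqt-3, again a description without a share over all genes.

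The squat gene sqt-2 had 85.1, 163 and 206 CPM in fed larvae, against 0.279, 0.506 and 1.29 CPM in the 12 starved batch 1 libraries other than LC4_49d. The roller gene rol-8 had 284, 529 and 707 CPM in fed larvae, against 1.03, 1.74 and 6.34 CPM in those starved libraries. col-17 had 642, 1144 and 1533 CPM in fed larvae, against 1.99, 3.02 and 7.22 CPM in those starved libraries. In batch 2 its message was at 0 counts in 5 of 15 libraries, and sqt-2 in 4 of 15.

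Within the fed control libraries, per kb of annotated exon, the genes other than dpy-17 fell into 3 tiers. col-17 stood at 1217 ± 189 CPM per kb, sqt-3 at 1041 ± 102, dpy-5 at 1024 ± 180, dpy-13 at 996 ± 187 and dpy-4 at 991 ± 144 CPM per kb (SD, n = 4), and the ranges of each and the next overlapped. Below them, without overlap, came sqt-1 at 585 ± 81.6 CPM per kb, rol-8 at 506 ± 77.9 and rol-6 at 438 ± 69.2, whose ranges overlapped in turn. Below these came sqt-2 at 176 ± 24.1 CPM per kb. The gap above sqt-1 was not seen in the other ancestries. In fed short-term dauer descendants sqt-3 ran from 471 to 866 and sqt-1 from 294 to 576 CPM per kb. In fed long-term dauer descendants they ran from 600 to 1110 and from 374 to 695 CPM per kb. dpy-17 ran from 12.6 to 365 CPM per kb, the highest value being that of LC12. In fed short-term dauer descendants dpy-17 stood at 34.6 ± 17.7 CPM per kb (SD, n = 4) and in fed long-term dauer descendants at 29.6 ± 19.1 CPM per kb (SD, n = 3), below sqt-2 without overlap in both. Per kb of coding length sqt-3 came first at 1640 ± 161 and col-17 second at 1603 ± 249 CPM per kb, with 1422 exon bases and 903 coding bases annotated for sqt-3.

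Feeding was compared with starvation separately in each ancestry with edgeR's quasi-likelihood test on the counts of the 24 batch 1 libraries (19406 genes tested, Benjamini-Hochberg adjustment, threshold 0.05). In short-term dauer descendants, 9 of the 10 collagens rose in fed larvae, where 28% of all genes tested were called higher and 30.2% lower. In long-term dauer descendants 0 of 10 were called, against 5.81% of genes called higher and 6.33% lower. In an edgeR fit of all 39 libraries with batch as a covariate, 9 of 10 were called there, as were 40.6% of 20151 genes in either direction. In control descendants all 10 rose, where 28.7% of all genes were called higher and 25% lower. One of these calls, that of dpy-17, was lost in several alternatives, among them leaving out fed LC12 or any 1 of the starved libraries LC10, LC11, LC14 and LC6. The members' log2 fold changes had a median of 7.30 in short-term dauer descendants, 1.81 in long-term dauer descendants and 7.84 in control descendants, beside -0.28, -0.09 and -0.15 over all genes tested.

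The individual libraries show how large the change was. Fed short-term dauer larvae (LC11, LC12, LC13 and LC14) had 1000, 1144, 1136 and 642 CPM of col-17, against 2.62, 1.99, 2.11, 7.22 and 4.57 CPM in starved ones (the same names and LC6). Fed control larvae (LC10, LC11, LC12 and LC14) had 1533, 1476, 1097 and 1221 CPM, against 2.26, 3.42, 2.10, 2.48 and 3.74 CPM in starved ones (the same names and LC6). No starved library of these 2 ancestries came near a fed one.

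The edgeR log2 fold change of col-17 was 7.80 ± 1.19 (SE, adjusted p = 3.18e-05) in short-term dauer descendants and 8.82 ± 1.25 (SE, adjusted p = 1.30e-05) in control descendants. Ranked by fold change in control descendants, col-17, sqt-2 and rol-8 held places 1, 2 and 3 among the 19406 genes. In short-term dauer descendants the places were 1 for col-17, 2 for dpy-5, 3 for sqt-2 and 10 for rol-8. In long-term dauer descendants without starved LC4_49d, col-17, rol-8 and sqt-2 held places 3, 4 and 5 among 20363 genes. The other 2 values in control descendants were 8.50 ± 1.22 for sqt-2 and 8.36 ± 1.23 for rol-8 (SE). These genes were known as leaders of the ranking from an earlier look at the same counts, so their place is a description.

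The genes with the remaining large changes were close together. In short-term dauer descendants the log2 fold changes of dpy-5, sqt-2, sqt-1, rol-6, dpy-13, rol-8 and dpy-4 ran from 6.59 (dpy-4) to 7.68 (dpy-5). In control descendants those of dpy-13, rol-6, sqt-1, dpy-5 and dpy-4 ran from 7.37 (dpy-4) to 7.89 (dpy-13). sqt-3 changed less on this scale, by 6.10 ± 1.02 in short-term dauer and 5.78 ± 1.01 in control descendants (SE, edgeR adjusted p = 7.02e-05 and 8.55e-05). Starved larvae held 8.09, 11.9, 14.2, 13 and 18.0 CPM of it in short-term dauer descendants (LC11, LC12, LC13, LC14, LC6) and 14.6, 13.8, 70.5, 25.6 and 8.01 CPM in control descendants (LC10, LC11, LC12, LC14, LC6), LC12 being the highest. A non-coding RNA annotated on the opposite strand overlaps 144 exon bases of sqt-3, and the unstranded libraries cannot assign reads there to a strand.

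**Figure D2:**
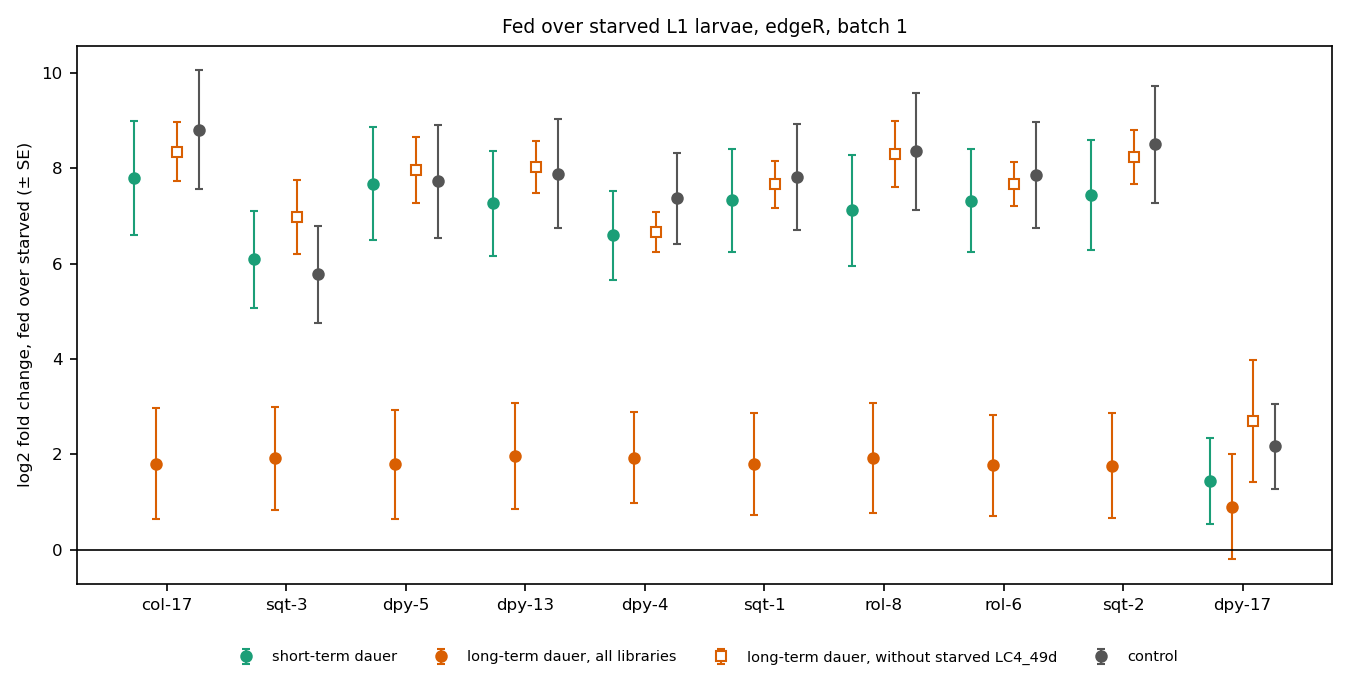
Log2 fold change, fed over starved, with its SE from edgeR for each of the 10 genes, in short-term dauer, long-term dauer and control descendants of batch 1, and in long-term dauer descendants without starved library LC4_49d (open squares). The 9 abundant genes lie between 5.78 and 8.82 except with LC4_49d included, where they lie between 1.76 and 1.96; dpy-17 lies lowest in every set.

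In long-term dauer descendants 1 library set the result. Fed larvae (LC3_40d, LC3_49d and LC4_49d) had 1352, 792 and 1494 CPM of col-17, against 3.58, 3.58 and 1032 CPM in the starved libraries of the same names. sqt-3 had 1443, 853 and 1579 CPM in fed larvae, against 10.5, 9.19 and 1007 CPM in starved ones. Starved LC3_40d and LC3_49d resembled the starved libraries of the other ancestries, and starved LC4_49d lay within the range of fed larvae.

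Starved LC4_49d held 63.3% to 73.3% of the level of fed LC4_49d for the 9 abundant genes, and 77.9 to 288 times the highest level in the other 6 starved long-term dauer libraries. For each of these genes, 7 to 9 of the 11 fed libraries were higher than it. Other genes of the same processes stood with the members there: the 6 furrow collagens summed to 1426 CPM in starved LC4_49d and to at most 26.9 CPM in the other 2 starved batch 1 libraries of that ancestry, and 7 regulators of the moulting cycle to 1189 CPM against at most 213 CPM. Its sum over the 3 intestine markers, 603 CPM, was inside the range of fed long-term dauer larvae (582 to 717 CPM), where the other 2 starved libraries had 1057 and 1155 CPM. Whether the library's label is right was not tested.

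With LC4_49d, edgeR gave log2 fold changes of 1.76 (sqt-2) to 1.96 (dpy-13) for the 9 abundant genes, with adjusted p of 0.166 to 0.279. Without it, in a fit of the 5 remaining long-term dauer libraries and the other 18 of batch 1, all 9 were called, and 24% of 20363 genes were called higher (14.9% lower). They ranged from 6.66 ± 0.42 (SE) for dpy-4 to 8.35 ± 0.62 for col-17, with a median of 7.82 over the 10 members. dpy-17 then had 2.70 ± 1.28 (SE, edgeR adjusted p = 0.107). LC4_49d was left out after its high levels of these same genes were seen, so the 9 calls without it are a description.

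The difference between the feeding responses was tested as an interaction in the same edgeR model, and 0 of 10 members were called in any pair of ancestries, where 0% of all genes were called. Between long-term dauer and control descendants the members' log2 differences ran from -7.01 (col-17) to -1.26 (dpy-17), with a lowest adjusted p of 0.471. Unadjusted, 9 of them had a p under 0.05, as had 1738 of the 19406 genes. DESeq2 called 8 members in this comparison, among 15 genes in all. Without starved LC3_49d edgeR called 8, among 98 genes. Without starved LC4_49d the same differences ran from -0.72 to 1.20. Between short-term dauer and control descendants they ran from -1.24 (rol-8) to 0.32 (sqt-3), with an adjusted p of 1.00 and 439 genes at an unadjusted p under 0.05.

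**Figure D3:**
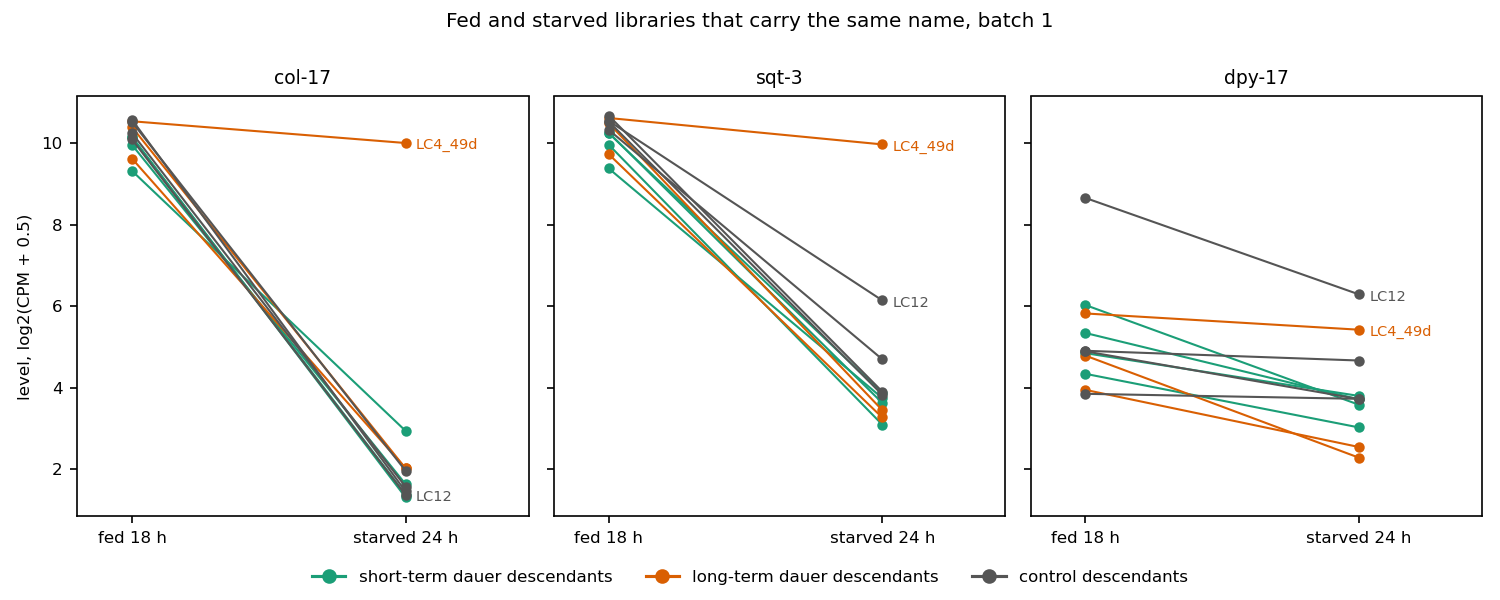
Levels of col-17, sqt-3 and dpy-17 as log2(CPM + 0.5) in the 11 pairs of batch 1 libraries that carry the same name and ancestry, fed on the left and starved on the right; each line joins 1 pair. All 11 lines fall from left to right for each gene, steeply for col-17 and sqt-3 except LC4_49d, and with a shallow slope for dpy-17.

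dpy-17, the other known substrate of DPY-31 among these genes, did not follow the rest. Its level in fed larvae was 19.9, 28.4, 40.3 and 65.1 CPM in short-term dauer descendants (LC11, LC12, LC13, LC14), against 7.68, 13.5, 12.7 and 11.5 CPM in the starved libraries of those names and 16.7 CPM in LC6. Long-term dauer descendants had 15, 27.3 and 56.3 CPM when fed (LC3_40d, LC3_49d, LC4_49d), against 5.36, 4.39 and 42.6 CPM when starved. Control descendants had 14, 29.3, 405 and 29.6 CPM when fed (LC10, LC11, LC12, LC14), against 12.8, 12.8, 78.1 and 25 CPM when starved and 6.54 CPM in LC6. Fed and starved libraries were separate in short-term dauer descendants and overlapped in control descendants, where LC12 was the highest of its group in both states. This too is a description, with no share over all genes.

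The fed library was the higher one in all 11 pairs of the same name for dpy-17, by 1.09-fold (control LC10) to 6.21-fold (long-term dauer LC3_49d). In edgeR its log2 fold change was 1.44 ± 0.89 in short-term dauer descendants (SE, adjusted p = 0.166), 0.90 ± 1.1 in long-term dauer descendants (adjusted p = 0.573) and 2.16 ± 0.90 in control descendants (adjusted p = 0.0488). The control call rested on fed LC12: without that library the log2 fold change was -0.20 (adjusted p = 0.822), and without the libraries that stood apart 0.66 (adjusted p = 0.242). Without the libraries that stood apart, dpy-17 was called in short-term dauer descendants (1.44 ± 0.46, SE, adjusted p = 0.0121). These include both control LC12 libraries, the highest of their feeding states in dpy-17, and were left out after their values were seen. The fold change was that of the full fit, and the SE fell from 0.89. Without them 30.7% of 19169 genes were called higher there and 28.2% lower. Without only starved LC14, the library of that ancestry among them, 9 of 10 members were called and dpy-17 was not. The call of dpy-17 is therefore a description.

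The CPM of dpy-17 over that of sqt-3, the other DPY-31 substrate, can be compared between libraries whatever the lengths of the genes. Since sqt-3 changed far more with feeding than dpy-17, this ratio largely restates the change of sqt-3 and is a description. In fed larvae this ratio was 0.0085 to 0.0973, except 0.27 in control LC12. Among starved larvae it was lowest in LC4_49d, at 0.0423, and 0.363 to 2.33 in the other 27 libraries.

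Levels of dpy-17 moved across libraries with genes of the late embryo. Fed control LC12 had 80.5 CPM of hch-1, the hatching enzyme gene, against 0.957, 3.72 and 5.20 CPM in fed control LC10, LC11 and LC14, and starved control LC12 had 18.0 CPM against 0.43 to 2.48 CPM in the other 4 starved control libraries of batch 1. The collagen gene dpy-14, known in the embryo, had 253 CPM in fed control LC12 and 50.8 CPM in starved control LC12. Over the 11 fed libraries the genes with the highest Pearson r to dpy-17 on the log2 scale were dpy-14 (0.987), cht-1 (0.985), col-165 (0.982), C01G6.3 (0.977) and cut-3 (0.976), and by Spearman's rho hch-1 had 0.973. These 11 points share LC12 as an extreme one, and no correlation without it is given. The part of late embryo RNA in the level of dpy-17 was not tested.

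**Figure D4:**
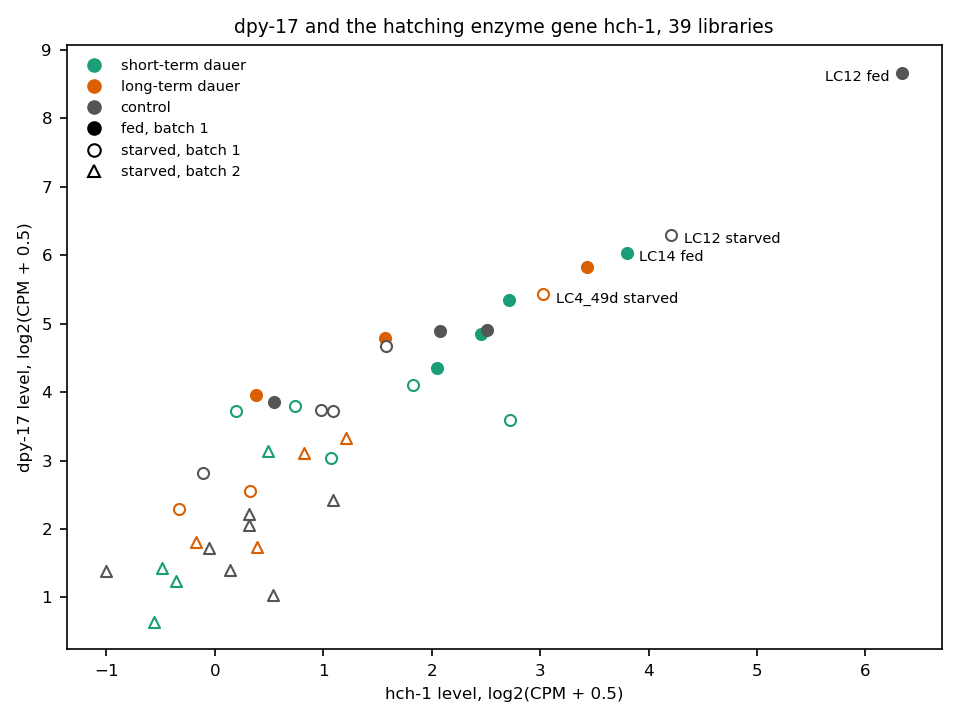
Level of dpy-17 against that of the hatching enzyme gene hch-1, both as log2(CPM + 0.5), in each of 39 libraries; colours mark ancestry, filled circles fed, open circles starved batch 1 and open triangles starved batch 2 libraries. Fed control LC12 (405 CPM of dpy-17, 80.5 CPM of hch-1) lies at the upper end, and starved control LC12, fed short-term dauer LC14 and starved long-term dauer LC4_49d lie along the same course.

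Among fed libraries the 9 abundant genes moved together. Their 36 pairwise Pearson correlations of log2 CPM over the 11 fed libraries ran from 0.913 to 0.993, while dpy-17 correlated with the others at -0.335 (dpy-13) to about 0 (sqt-3). These values are a description over libraries that also share lanes and depths. Short-term dauer LC14 was the lowest and long-term dauer LC3_49d the second lowest fed library for each of the 9. Summed over them, these 2 libraries held 3685 and 4568 CPM, and the other 9 fed libraries 5711 to 8591 CPM.

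Each gene was set against a mean in the same library, taken over the 8 members other than sqt-3 and dpy-17, without the gene itself. For these 8 genes the SD of the log2 ratio over the 11 fed libraries was 0.04 (rol-6) to 0.09 (sqt-2). That of sqt-3 was 0.14, its highest ratio being in control LC12, and that of dpy-17 was 1.49. These 2 genes were kept out of the mean because they moved less with the others, so their larger SDs are in part built in. By the rule of likeness to the members' mean, the nearest of 8828 other genes were K01A2.5 (Pearson r = 0.975), lgc-22 (0.971), mam-3 (0.968), F13B12.4 (0.968) and F01D5.6 (0.966) over the 11 fed libraries, and 2 of these 5 were also among the nearest by Spearman's rho. For sqt-3 alone grl-7, a gene of the ground-like family, was nearest (0.981).

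**Figure D5:**
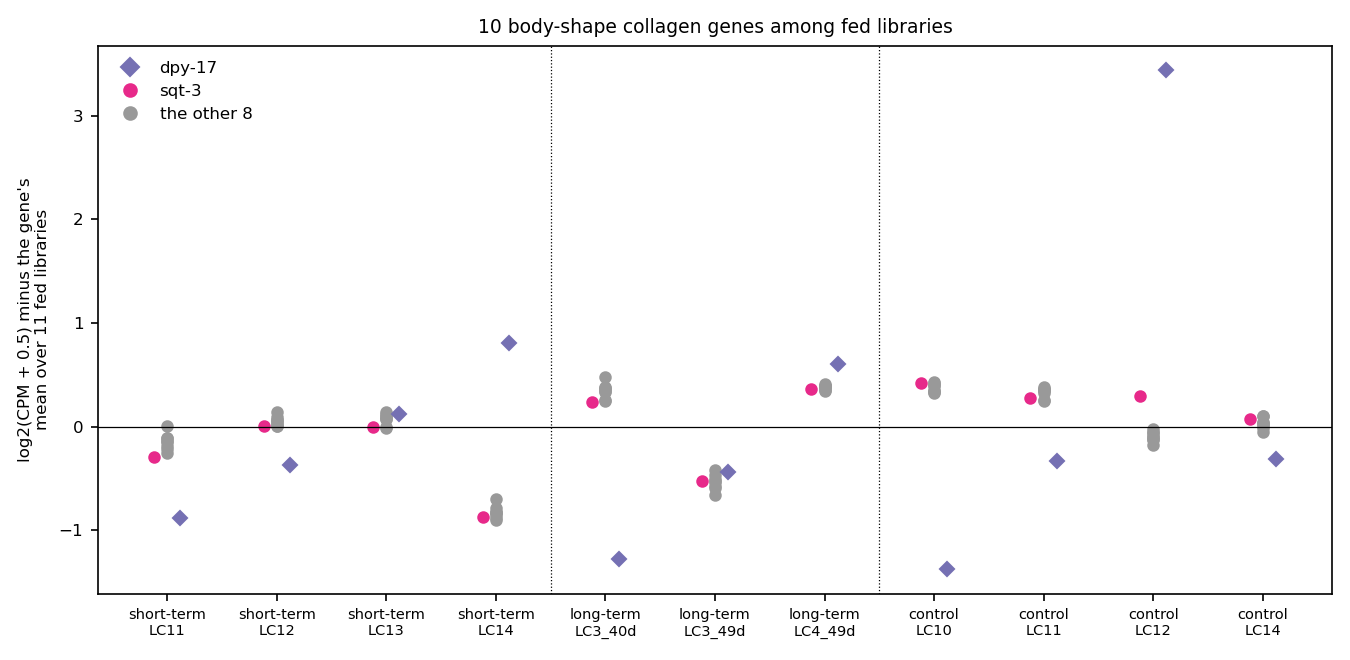
Level of each of the 10 genes in each of the 11 fed libraries as log2(CPM + 0.5), minus the gene's own mean over these libraries; columns are libraries, dotted lines part the ancestries and a point is 1 gene in 1 library. The genes other than dpy-17 lie together in each library, lowest in short-term dauer LC14 (summed level 3685 CPM), while dpy-17 (diamonds) lies outside them in most libraries and is highest in control LC12.

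Ancestry was compared within fed larvae with edgeR on the 11 fed libraries (16132 genes), and 0 of 10 members were called in any pair of ancestries, where 0% of genes were called. sqt-3 was the 1 member of 10 whose ranges did not overlap between fed short-term dauer and fed control descendants. It had 1003, 1231, 1220 and 669 CPM in the former (LC11 to LC14). In the latter it had 1645, 1486, 1501 and 1291 CPM (LC10, LC11, LC12 and LC14). sqt-3 was picked from 10 genes and no share over all genes is given, so the lack of overlap is a description. Its log2 fold change was -0.57 ± 0.19 (SE, edgeR adjusted p = 0.881). The other 9 members overlapped, and all 10 log2 fold changes were below 0, from -1.71 (dpy-17) to -0.32 (sqt-1), with a median of -0.39 beside 0.01 over all genes. The 9 members other than dpy-17 moved together among fed libraries, and short-term dauer LC14 was the lowest for each. Their shared direction is therefore not a set of independent results. The value of dpy-17 rested on fed control LC12, and without that library it was 0.66 (edgeR adjusted p = 0.918). Unadjusted, 826 genes had a p under 0.05.

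Lane moved with that comparison, since fed short-term dauer libraries all carry lane code 5. Against the 2 fed control libraries of lane code 5 alone (LC12 and LC14), the log2 ratio of mean CPM was -0.44 for sqt-3, -0.24 for col-17 and -0.08 for rol-8 and for dpy-5. The part of lane in the comparison was not tested. Fed long-term dauer descendants overlapped fed control descendants for all 10 genes, with edgeR log2 fold changes from -1.93 (dpy-17) to 0.04 (rol-8), a lowest adjusted p of 0.932 and 706 genes at an unadjusted p under 0.05. Against the 2 fed control libraries of their own lane code 4 (LC10 and LC11), which leaves out LC12, the log2 ratio of mean CPM was 0.60 for dpy-17 and -0.31 (col-17) to -0.12 (rol-8) for the other 9.

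Within starved larvae ancestry was compared over 28 libraries with batch as a covariate (edgeR, 15980 genes), and sqt-2 was too low to be tested. Of the other 9 members 0 were called in any pair, where 0% of genes were called. Between long-term dauer and control descendants the log2 fold changes ran from 0.13 (dpy-17) to 4.53 (col-17), with a lowest adjusted p of 0.269 and 2079 genes at an unadjusted p under 0.05. The high values came from LC4_49d: without it they ran from -0.70 to 0.18, and in batch 2 alone from -1.28 to 0.95. Between short-term dauer and control descendants they ran from -0.63 (dpy-5) to 0.12 (rol-8), with an adjusted p of 1.00 and 235 genes at an unadjusted p under 0.05.

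Starved libraries of batch 2 held a few higher values. Short-term dauer library 10 had 5 CPM of col-17 and 14 CPM of sqt-3, and control library 4_10 had 9.42 and 13.5 CPM, where the other 13 libraries of batch 2 had at most 1.69 CPM of col-17 and 8.79 CPM of sqt-3. dpy-5 was at 3.53 CPM and dpy-4 at 4.83 CPM in short-term dauer library 14, in which col-17 was at 0.465 CPM. Control library 14 had 7.31 CPM of dpy-5 beside 0.962 CPM of dpy-4 and 0 CPM of col-17, and long-term dauer library 2 had 3.28 CPM of dpy-5. In batch 1, starved control LC6 had 8.95 CPM of dpy-5 beside 3.74 CPM of col-17, where the other 4 starved control libraries had 2.28 to 3.02 CPM of dpy-5.

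Genes that act with these collagens were counted in the same feeding comparisons. In short-term dauer descendants 28% of all genes were called higher and 30.2% lower, and in control descendants 28.7% and 25%. In long-term dauer descendants without starved LC4_49d, 24% of 20363 genes were called higher. All 6 furrow collagens (dpy-7, dpy-2, dpy-3, dpy-8, dpy-9 and dpy-10), which form the furrows between cuticle annuli, rose in fed short-term dauer and fed control descendants, 0 of 6 were called in long-term dauer descendants, and 6 of 6 there without starved LC4_49d. Their median log2 fold change was 5.86 in short-term dauer and 5.69 in control descendants. dpy-7 had 5.72 ± 1.01 and 5.75 ± 1.01 (SE), and dpy-2 had 6.00 ± 0.99 and 5.90 ± 0.99 (SE), in the same order of ancestries.

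Other collagen genes with a shape or blister name behaved otherwise. Of lon-3, rol-1, bli-1, bli-2, bli-6, dpy-14 and ram-2, lon-3 rose in fed short-term dauer (log2 fold change 5.48) and fed control descendants (6.95). bli-1, a strut collagen of the adult cuticle, had a log2 fold change of -1.36 in short-term dauer descendants (edgeR adjusted p = 0.0213), a call that rested on starved LC14: without that library it was -0.35 (adjusted p = 0.326). No other gene of the 7 was called in these 2 ancestries. Without the libraries that stood apart ram-2 was called as well in control descendants (0.47, edgeR adjusted p = 0.00365).

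Of 148 other tested genes with a col- name, 60 rose and 44 fell in fed short-term dauer descendants, beside 28% of all genes called higher and 30.2% lower. In fed control descendants 64 rose and 26 fell, beside 28.7% and 25% of all genes. Adult markers moved with the counts of short-term dauer descendants: all 4 adult markers tested were called lower there when fed (median log2 fold change -2.31). Starved LC14 held 41.2 CPM over the 11, among them 5.63 CPM of the adult collagen gene col-19 and 2.32 CPM of col-7. Without starved LC14 (a fit added after seeing the data), 62 of the 148 rose and 26 fell in short-term dauer descendants, where 29.4% of 18862 genes were called higher and 25.8% lower, and 2 of the 4 adult markers were called lower (median -0.98).

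The enzymes that make collagen rose as well, by smaller factors. Of 9 processing genes, 6 rose and 1 fell in fed short-term dauer and in fed control descendants, where 28% and 28.7% of all genes were called higher. dpy-18 and phy-2, the prolyl 4-hydroxylase subunits, had log2 fold changes of 2.74 ± 0.36 and 3.06 ± 0.45 in short-term dauer descendants and 2.93 ± 0.37 and 3.15 ± 0.45 in control descendants (SE). dpy-31, the protease that trims SQT-3 and DPY-17, rose by 0.63 in short-term dauer and 0.54 in control descendants, and bli-4, a furin-like protease, by 0.43 and 0.50. The 1 gene that fell was tsp-15, named after its values were seen, a tetraspanin of the complex that cross-links collagen (-0.54 in short-term dauer and -0.69 in control descendants).

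Transcription factors and timing genes of the moulting cycle rose in 5 of 7 cases in short-term dauer and 6 of 7 in control descendants. Of all genes, 28% and 28.7% were called higher there. lin-42, the worm homologue of the clock gene period, had log2 fold changes of 5.63 ± 0.91 and 6.18 ± 0.93 in these ancestries (SE), nhr-23, a nuclear receptor needed for moulting, 2.58 ± 0.37 and 2.74 ± 0.38, and blmp-1, a zinc-finger factor, 2.16 ± 0.31 and 2.33 ± 0.31. nhr-25, another nuclear receptor, had 0.32 in short-term dauer (edgeR adjusted p = 0.054) and 0.49 in control descendants (edgeR adjusted p = 0.00545), and the difference between these 2 responses was not called.

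Median changes of tissue markers were smaller. Over 5 epidermal markers, 4 of which are in the lists above, the median log2 fold change was 0.72 in fed short-term dauer and 0.94 in fed control descendants. Their values ran from 0.33 to 5.72 and from 0.23 to 5.75, dpy-7 being the highest. Of these 5, 4 were called higher in each, where 28% and 28.7% of all genes were. The median was -0.72 and -0.63 over 3 muscle markers and -0.74 and -0.88 over 3 intestine markers, in the same order. Adult markers summed to 1.86 to 5.31 CPM in fed libraries and to 2.38 to 7.33 CPM in starved ones other than short-term dauer LC14, with msp-19 at 0 counts outside starved short-term dauer descendants of batch 1. In RNA from whole larvae, a gene lower in 1 group may reflect fewer cells that express it or less RNA per cell, and these cannot be told apart.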

How the data were processed

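The authors deposited raw read counts per gene, 1 table for each of 39 libraries, with 44968 features and 5 summary rows. The submitters' processing notes name Bowtie 1.1.2, HTSeq and edgeR without roles. The genome build and annotation are not given in the sources used here, so no coordinates are printed. Libraries were unstranded per the labels' protocols. The summary rows stayed out of library sizes and tests. They listed 14.4% to 19.0% of reads as not aligned, 1.75% to 12.6% as outside genes and 2.70% to 4.20% as ambiguous, and none as aligned to several places, so how reads shared by similar genes were treated is not known from them. Symbols and exon lengths came from the Ensembl WBcel235 annotation, which matched 44443 features and left 525 unmatched.

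Groups, names, batches and lane codes were taken from the labels. The members and gene lists were chosen with earlier results of these data known, and col-17, sqt-2, rol-8 and dpy-5 had been named in them. Tests used edgeR 4.0.16 under R 4.3.3 (TMM, filterByExpr by group, robust glmQLFit and glmQLFTest, Benjamini-Hochberg adjustment over all genes tested, threshold 0.05). Feeding was fitted on the 24 batch 1 libraries, ancestry on 28 starved libraries with batch and on 11 fed libraries. SE is the fold change over the square root of F. P-values measure the spread between these libraries. All 10 members are named. Lists give at most 4 examples in their written order, and the nearest genes are the 5 non-members with at least 10 CPM over fed libraries and the highest Pearson r with the members' mean. Log levels use a pseudocount of 0.5 CPM. In counts simulated with 200 changed genes, each by a log2 fold change of 1.5, the test recovered 79.5% for feeding in control descendants (19211 genes), 81.5% in short-term dauer (19172 genes) and 70.5% in long-term dauer descendants (19192 genes). For the response differences it recovered 54% to 55.5%. All simulated libraries of a group shared a mean profile, so none stood apart across genes as starved LC4_49d did. Alternatives were RLE size factors, no filter, DESeq2 1.42.0, other sets of libraries, a replicate block and leaving out single libraries.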

Additional observations from a re-analysis of the deposited data

Results flagged for a closer look

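One starved long-term dauer library, LC4_49d, was singled out in 9 of the 10 collagen genes because it lay far above the other 6 libraries of its group. Its levels as log2(CPM + 0.5) were 10.011 for col-17, 9.977 for sqt-3, 9.529 for dpy-13, 9.508 for dpy-5, 9.489 for dpy-4, 9.016 for sqt-1, 8.813 for rol-8, 8.632 for rol-6 and 7.219 for sqt-2. The 9 values come from 1 library and are not independent. Fed short-term dauer library LC14 was singled out for sqt-2, the lowest of its 4 libraries at 6.419 on the same scale, and it was the lowest fed library for the other 8 abundant members too. The gap of the extreme library to its neighbour was tested in 40 groups of 4 to 10 libraries, of which chance would single out about 2, and 10 were. Starved groups held both batches together. The 12 starved control and the 3 fed long-term dauer libraries lie outside these sizes and were not tested in this way.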

How the results depend on the processing

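In short-term dauer and control descendants, every alternative that gave an adjusted p called the 9 members other than dpy-17 higher when fed. These were 143 values in each ancestry, with log2 fold changes of 5.37 to 8.29 and 5.55 to 8.96. As reported, 28% and 28.7% of all genes were called higher in these ancestries. In long-term dauer descendants the number of members called higher was 0 as reported, 9 with all 39 libraries and batch (40.6% of all genes called), 9 with the replicate block (25.1%), 10 without the libraries that stood apart, chosen after seeing the data (52.9%), and 0 to 9 when 1 library was left out, the 9 without starved LC4_49d (38.9%). For the response difference between long-term dauer and control descendants it was 0 as reported, 8 with DESeq2 (15 genes in all) and 0 to 8 with 1 library left out, the 8 without starved LC3_49d (98 genes). For starved long-term dauer against control descendants 0 members were called as reported and 4 with all 39 libraries (172 genes). The cause was not tested. For dpy-17 the log2 fold change in control descendants was -0.20 without fed LC12, and it was not called with RLE size factors (2.03), without the filter (1.99), with only that ancestry (2.02) or with the replicate block (1.47). DESeq2 gave no adjusted p for sqt-3 in the feeding comparisons, for dpy-17 in the fed ones, or for the members other than dpy-17 in the starved ones. With 1 library left out, dpy-17 ranged from -0.20 to 3.04 in that comparison, and between fed short-term dauer and fed control larvae from -2.14 to 0.66, the 0.66 without fed control LC12. The same names did not deviate together in every pair (r = -0.115 to 0.434 over 11 pairs of fed and starved libraries), so the names were not taken to pair the samples. Members at the level of a few counts in batch 2 are limited by depth.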

Other observations

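Starved libraries of batch 1 held more of these messages than those of batch 2, batches that differ in depth and lane as well. Median levels in the 12 libraries of batch 1 other than LC4_49d and in the 15 of batch 2 were 13.4 and 2.23 CPM for sqt-3, 12.7 and 2.84 CPM for dpy-17, 6.54 and 2.32 CPM for dpy-4, 3.02 and 0.465 CPM for col-17, and 0.506 and 0.0969 CPM for sqt-2. The libraries of the 2 batches overlapped for all 5 genes.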
